A study of Mus musculus with 576 samples.

Results

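The FoxO factors examined here are the transcription factor genes Foxo1 (ENSMUSG00000044167), Foxo3 (ENSMUSG00000048756) and Foxo4 (ENSMUSG00000042903), found in the count tables by these Ensembl identifiers, 3 of 46078 genes. They were read in single haematopoietic stem cells (HSCs) of mouse bone marrow, the cells from which all blood lineages are renewed. Every cell carried the surface phenotype CD150+CD48-cKit+Sca1+, which marks long-term HSCs, and gave its own library. The 6 groups were control cells that were p27 high, p27 low or p27 negative, and cells labelled as treated with lipopolysaccharide (LPS), an outer membrane component of bacteria that activates innate immunity, in the same 3 p27 classes. Each group had 96 cells, and where a treatment has 3 values below they follow the order p27 high, low, negative. The strain, the age and number of the animals, the LPS dose and time, and the way the p27 marker was read were not given in the sources used here. No animal is named for any cell, so each group was 1 sample and differences between groups could not be tested. The control and LPS cells were deposited in 2 separate tables, so a difference between treatments and a difference between their preparations cannot be told apart.

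FoxO proteins are forkhead transcription factors that growth factor signalling holds in check. Receptors such as Kit activate the lipid kinase PI3K and then the kinase AKT, and AKT phosphorylates FoxO proteins, which then bind 14-3-3 proteins and leave the nucleus. When this signalling is low, FoxO proteins stay in the nucleus and activate genes of cell cycle arrest, antioxidant defence, autophagy and cell death. In mice, FoxO factors are known to be needed to keep HSCs quiescent and to limit reactive oxygen in them. Most of this control acts on the proteins, which RNA reads do not measure.

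Forkhead proteins recognise a short DNA core, and 4 stretches of target promoters that hold it are shown here because their genes are followed below. The letters GTAAACA were searched on both strands in RefSeq windows of assembly GRCm38.p6, which run from 250 bases before to 50 bases after each gene's start site. They occurred in 9 of the 54 listed FoxO target genes that had a window (16.7%) and in 4.05% of all 27025 genes with one. The list held known targets of this family, so its share is a description and not a result of these cells. The longer form GTAAACAA, which contains the first, occurred in 6 of the 54 (11.1%) and in 1.32% of all genes. Each stretch reads 5′ to 3′ on the strand of its gene, with the core, or its reverse complement TGTTTAC, in capitals.
Txnip, chr3:96557816-96557862, plus strand: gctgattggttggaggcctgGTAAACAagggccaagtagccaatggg
Selenop, chr15:3270933-3270976, plus strand: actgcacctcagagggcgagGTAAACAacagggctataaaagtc
Btg1, chr10:96616777-96616823, plus strand: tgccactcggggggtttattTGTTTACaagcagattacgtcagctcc
Bcl2l11, chr2:128125791-128125837, plus strand: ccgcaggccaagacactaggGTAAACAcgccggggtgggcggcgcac
The core ended 114 bases before the start site of Txnip, 17 before that of Selenop, 197 before that of Btg1 and 220 before that of Bcl2l11. In the GENCODE M21 annotation the Txnip stretch lay in an exon of the noncoding gene Gm15441, and the other 3 stretches lay in no annotated gene. The windows of Foxo1 and Foxo3 did not hold these letters, and no window of Foxo4 was used here. A match is a run of letters and not evidence of binding.

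Of the 576 cells, 547 had at least 50000 reads on genes and were used, which removed 29 cells, 12 of them control p27 high. The kept cells had 52163 to 1942773 gene reads, and summed gene reads per group ran from 21714440 to 49018367. All 12 HSC markers had reads in every group, with 1782 to 3114 summed reads per 1000000 gene reads (CPM). Of the 8 B cell markers 1 to 5 had no read in a group, Cd79a or Igll1 being among them in each, and the summed level was 31.3 to 83.6 CPM, nearly all from Cd79b. Of the 8 T or NK cell markers 3 to 5 had no read, among them Cd3g in every group, and the sum was 92.6 to 208 CPM, mostly Nkg7. Of the 10 neutrophil or monocyte markers 1 to 4 had no read in a group, and the sum was 118 to 333 CPM, led by Prtn3. The 8 erythroid markers summed to 56.4 to 135 CPM in 5 groups and to 489 CPM in control p27 negative cells. The 8 megakaryocyte or platelet markers summed to 312 and 239 CPM in p27 high cells (control, LPS) and to 840.4 to 1401 CPM in the other 4 groups, with Gp6 at 0 in each. What part these other markers have in the FoxO differences between classes was not tested.

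Foxo3 was the most abundant of the 3 transcripts in every group, and the fourth FoxO gene of the mouse, Foxo6, was all but undetected. Foxo3 is the FoxO factor best known for HSC maintenance, and it lies on chromosome 10 (mm10, 42181841 to 42276755, minus strand). Per kilobase of exon, Foxo3 gave 66.7% to 77.9% of the summed level of the 3 genes, Foxo1 20.5% to 29.1% and Foxo4 1.21% to 5.06%. Foxo1 lies on chromosome 3 (52268336 to 52353221, plus strand), and Foxo4 on chromosome X (101254528 to 101260873, plus strand). The span of Foxo1 overlaps the antisense gene Gm20402 and the same-strand model Gm38034. How reads in these overlaps were counted was not given in the sources used here, and no strand setting would separate those of Gm38034. Foxo6 had at most 2 reads in any group. Cdkn1b is the gene of p27. Its level was 74.6, 68.5 and 81.9 CPM without LPS and 108, 62.9 and 74.9 CPM with it. Its RNA thus followed the full order of the p27 marker classes in neither treatment, though with LPS it was highest in p27 high cells.

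Per gene read, Foxo3 was lower after LPS in all 3 p27 classes, by least in p27 high cells. Per spike-in read, however, Foxo3 was higher in the p27 high and negative classes. Its level was 72.5, 93.3 and 63.3 CPM in the control classes, with exact Poisson 95% intervals of 68.9 to 76.2, 89.9 to 96.8 and 60.9 to 65.8. After LPS it was 54.7 (52.2 to 57.3), 32.9 (30.8 to 35.1) and 28.7 (27.2 to 30.2) CPM. These intervals hold counting error alone, and PCR copies without molecular identifiers are not independent molecules. The highest 3 of the 6 groups were thus the control groups, and no interval of neighbours in the order overlapped. The spread within a group was much wider: when the cells of a group were taken in 3 parts by their number (1 to 32, 33 to 64 and 65 to 96), Foxo3 ranged from 24.4 to 115 CPM in LPS p27 high cells and from 43.3 to 129.6 CPM in control p27 low cells. By these ranges, neighbours in the order of the 6 groups all overlapped. The parts come from 1 group of cells and are not replicates.

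At an equal number of gene reads, the share of cells in which Foxo3 was found differed between treatments. This share is a measure per gene read. It does not cover the spike-in scale, on which Foxo3 was higher after LPS in p27 high and negative cells. With every cell reduced by calculation to 50000 reads, at least 1 Foxo3 read would be found in 61.9%, 61.3% and 51.6% of cells in the control classes. The exact (Clopper-Pearson) 95% intervals, which cover the drawing of cells only, were 50.7% to 72.3%, 50.6% to 71.2% and 41.1% to 62%. In LPS cells the shares were 38.7% (28.8% to 49.4%), 34.4% (24.7% to 45.2%) and 30.4% (21.3% to 40.9%). The control and LPS intervals did not overlap in any of the 3 classes. Across the 11080 genes with a mean of at least 5 CPM over the groups, an LPS interval lay below the control interval in 0.93%, 3.06% and 0.966% of genes in the 3 classes. For 17 genes (0.153%) this was so in all 3 classes, and Foxo3 was 1 of them.

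The parts by cell number gave the same order for Foxo3 detection. The 3 parts of control p27 high cells had 57.8% to 65% of cells with a Foxo3 read at equal depth, against 37.3% to 40.7% in LPS. In p27 low cells the parts ran from 58.6% to 65.3% in control and from 28.5% to 38.8% in LPS. In p27 negative cells they ran from 40% to 63.5% in control and from 24.4% to 38.3% in LPS. Every LPS part was below every control part of its class, which was so in all 3 classes for 1.31% of the 11080 genes. The median number of genes found per cell at 50000 reads was 3941, 4160.0 and 4862 in control and 3979, 3969 and 4916 in LPS, so it was not lower after LPS in p27 high or p27 negative cells. Without the reduction to equal depth the Foxo3 shares were 79.8%, 83.9% and 77.9% in control and 57%, 54.4% and 53.3% in LPS, and again no pair of intervals overlapped. When 5 reads were asked for, the shares were 48.8%, 55.9% and 45.3% against 33.3%, 30% and 32.6%, and only the p27 low intervals stayed apart. At 200000 reads per cell, which leaves out shallower cells, the shares were 74.5%, 81.5% and 71.4% against 54.9%, 50.8% and 48.2%, and the intervals overlapped in p27 high and negative cells.

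**Figure D1:**
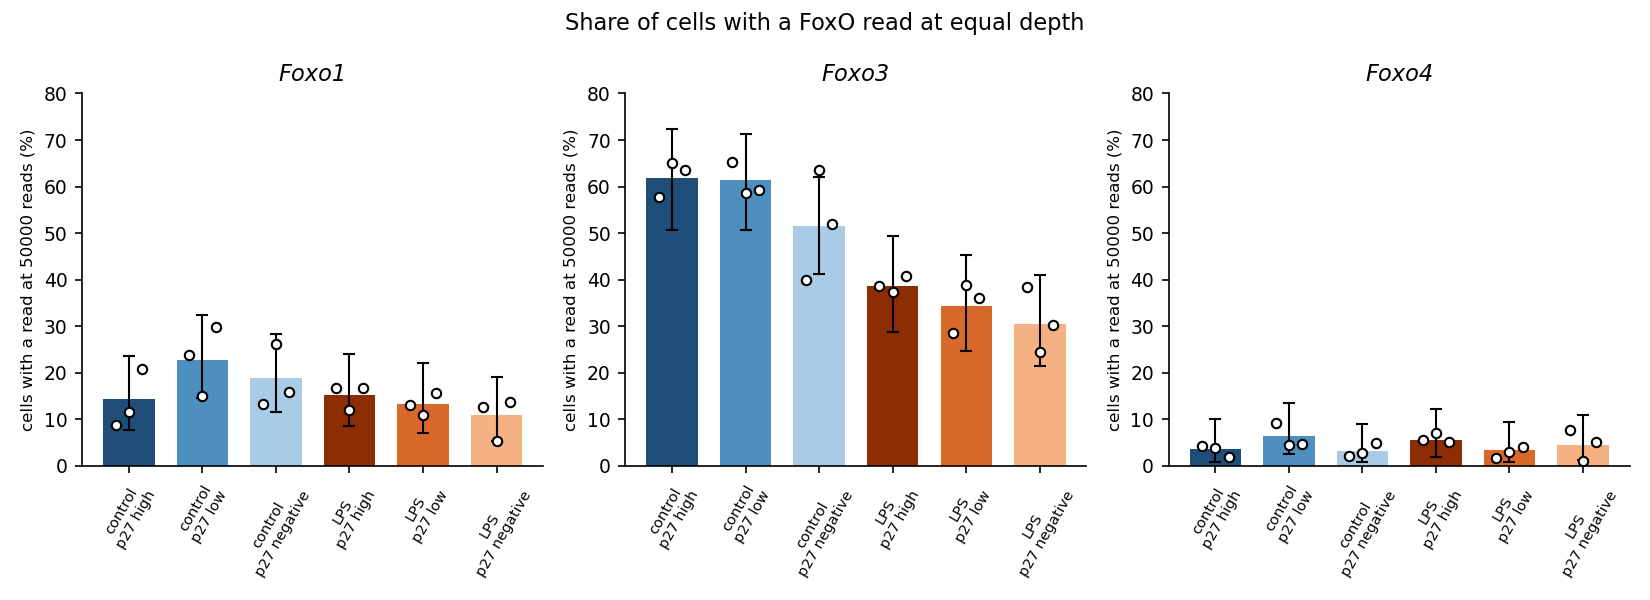
Percentage of cells with at least 1 read of Foxo1, Foxo3 or Foxo4 after reduction to 50000 reads per cell (vertical axes); bars are groups, error bars Clopper-Pearson 95% intervals and open circles the 3 parts by cell number. For Foxo3 the control bars stand at 51.6% to 61.9% and the LPS bars at 30.4% to 38.7%, with no circle of an LPS group above a circle of its control group.

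Foxo3 covered a wide range from cell to cell. Over all kept cells, those without a read included, the median cell had 28.2, 21.7 and 13.6 CPM without LPS and 3.61, 2.93 and 1.53 CPM with it. Cells without any Foxo3 read made up 16.1% to 22.1% of control cells and 43% to 46.7% of LPS cells. Cells at 100 CPM or more made up 22.6%, 31.2% and 21.1% of the control groups and 11.8%, 11.1% and 9.78% of the LPS groups. LPS cells therefore had both more cells at 0 and fewer cells at the top. In LPS p27 high cells 22% of all Foxo3 reads came from 1 cell, and without the top cell of each group the level was 43.2 CPM against 69 CPM in control.

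**Figure D2:**
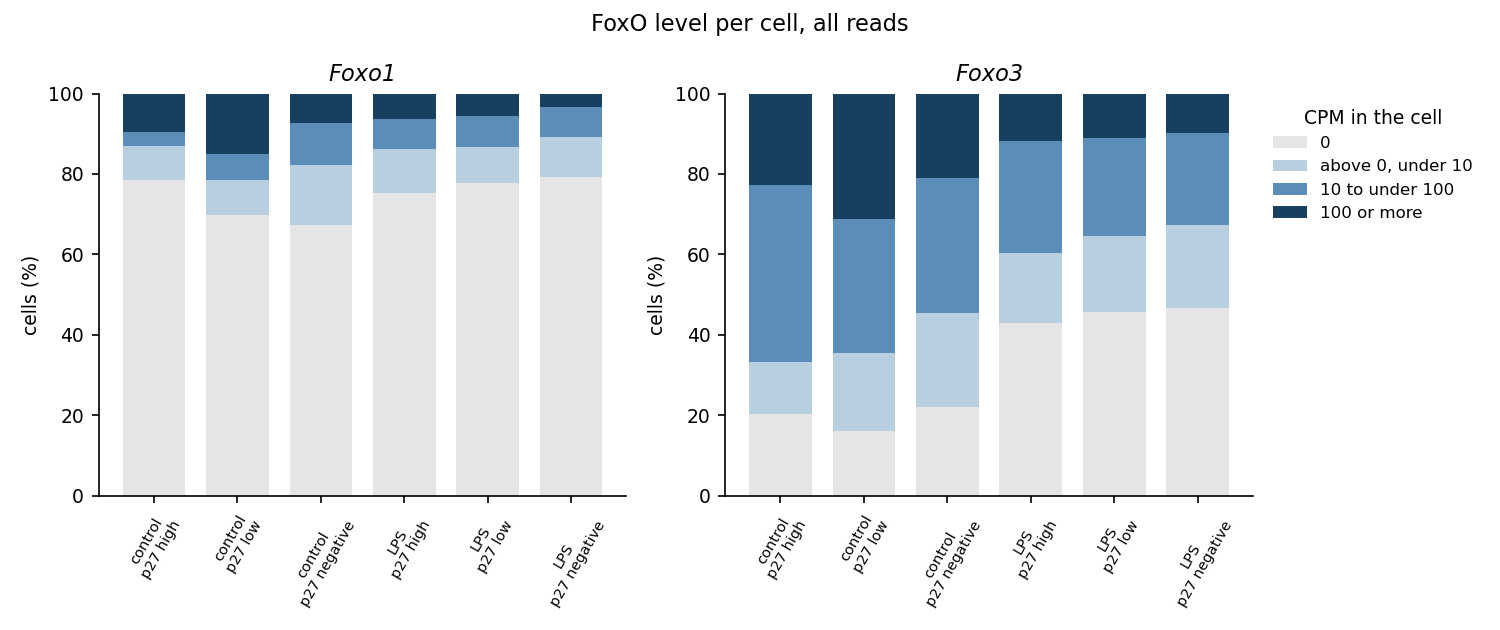
Percentage of cells (vertical axes) at 0, above 0 and under 10, 10 to under 100, and 100 or more CPM of Foxo1 and Foxo3 in each group, from all reads. The pale segment at 0 takes 16.1% to 22.1% of control and 43% to 46.7% of LPS cells for Foxo3, and 67.4% to 79.3% of cells in every group for Foxo1.

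In terms of fold, after adding 1 CPM, LPS p27 low cells had 2.78-fold less Foxo3 than control p27 low cells, and LPS p27 negative cells 2.17-fold less than control p27 negative cells. In p27 high cells the fold was 1.32, under the 1.5-fold used here to call a difference. In p27 high cells with at least 200000 gene reads the level was 58.2 CPM in LPS and 59.8 CPM in control. Among all kept p27 high cells numbered 1 to 32 the level was higher after LPS, 115 against 57.5 CPM. In the other parts it was lower, 29.2 against 78.5 and 24.4 against 80 CPM. Only in p27 negative cells did the ranges over the parts not overlap (47.9 to 88.6 CPM in control, 16.7 to 35.3 CPM in LPS), as was so for 20.3% of the 11080 genes there. Between p27 classes, Foxo3 differed by 1.14-fold to 1.47-fold among control cells. LPS p27 high cells had 1.88-fold more Foxo3 than LPS p27 negative and 1.64-fold more than LPS p27 low cells, with overlapping part ranges. That excess came from the first part (115 CPM); the other parts of LPS p27 high cells had 29.2 and 24.4 CPM.

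Foxo1 was present in few cells and at high level in fewer. It was 28.9, 46.7 and 19 CPM in the control classes (Poisson intervals 26.7 to 31.2, 44.3 to 49.1 and 17.7 to 20.4). With LPS it was 25.6 (23.9 to 27.3), 16.1 (14.6 to 17.7) and 11.6 (10.7 to 12.6) CPM. Control p27 low cells were highest and LPS p27 negative cells lowest, and the part ranges of all neighbours in this order overlapped. At 50000 reads per cell, Foxo1 was found in 14.3%, 22.6% and 18.9% of control cells and in 15.1%, 13.3% and 10.9% of LPS cells, and no pair of intervals of the 9 comparisons was apart. Cells at 100 CPM or more numbered 8, 14, 7, 6, 5 and 3 in the groups in the same order, and they held 68.1% to 95.1% of the group's Foxo1 reads. A single cell gave 16.5% to 39% of them, and without its top cell control p27 negative Foxo1 was 11.9 CPM.

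The Foxo1 fold had the same sign in all 3 parts in 1 of 9 comparisons, as for Foxo3, where for Foxo4 it was 5 of 9. Foxo1 was 2.79-fold lower in LPS than in control p27 low cells, yet in the cells numbered 33 to 64 it was 27.8 CPM in LPS and 24.3 CPM in control. It was 2.38-fold higher in control p27 low than p27 negative cells, yet 24.3 against 34.8 CPM in the same part. The 1 Foxo1 comparison with the same sign throughout was LPS p27 high against negative cells, 25.6 against 11.6 CPM or 2.1-fold, where the parts were 14.6 to 39.5 CPM against 10.5 to 13 CPM. For 21.8% of the 11080 genes the part ranges did not overlap in that comparison.

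Foxo4 was near the limit of detection. It had 12, 83 and 26 reads in the control classes, or 0.553 (0.286 to 0.965), 2.73 (2.17 to 3.38) and 0.625 (0.408 to 0.916) CPM. With LPS it had 63, 27 and 43 reads, or 1.89 (1.45 to 2.42), 0.972 (0.641 to 1.41) and 0.877 (0.635 to 1.18) CPM. The 2 highest groups were control p27 low and LPS p27 high, whose intervals overlapped. Its reads came from 6 to 13 cells per group, and 1 cell gave 23.1% to 48.8% of them. Without the top cell the level was 0.325 CPM in control p27 high and 0.453 CPM in LPS p27 negative cells. Foxo4 was 1.86-fold higher in LPS than in control p27 high cells and 1.89-fold lower in LPS than in control p27 low cells, after adding 1 CPM. The part ranges did not overlap in these comparisons, as was so for 17.7% and 20.7% of the 11080 genes, nor for control p27 low against p27 high (12.8% of genes) and against p27 negative cells (17.5%). At 12 to 83 reads per group this rests on few cells. With a mean of 1.27 CPM, Foxo4 is below the 5 CPM minimum and is not 1 of the 11080 genes. The shares beside it are thus those of genes with more reads.

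The 1.5-fold call was passed by many genes in every comparison, so the number of FoxO members past it is a description only. The shares beside the counts are over the 11080 genes, which do not include Foxo4. Between control p27 high and negative cells 0 of 3 passed, where 41.3% of the 11080 genes did. Foxo1 and Foxo4 were lower in control p27 high than low cells, as 16.3% of genes were, and higher in control p27 low than negative cells, as 20.7% were. With LPS, all 3 members were higher in p27 high than negative cells (22.6% of genes), Foxo1 and Foxo3 were higher in p27 high than low cells (22.2%), and 0 of 3 passed between p27 low and negative cells (35.4% in either direction). In LPS against control p27 high cells 1 of 3 passed, Foxo4 as higher (15.5% of genes). In p27 low cells all 3 were lower after LPS (30% of genes), and in p27 negative cells Foxo1 and Foxo3 were lower (22.8%). Per spike-in read, 0 of 3 passed in LPS p27 high against negative cells and in LPS against control p27 low cells. On that scale all 3 were higher after LPS in the p27 high and the p27 negative class, all 3 were higher in LPS p27 high than low cells, and Foxo3 was lower in LPS p27 low than negative cells. The 3 comparisons within control kept their counts of 0, 2 and 2. The 9 comparisons share groups and are not independent.

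Foxo1 and Foxo3 reads were found together in as many cells as separate detection would give. At 50000 reads, 41.1 of the 547 cells were expected to have both, against 42 if the 2 genes were detected independently within each group. Cells with no read of any FoxO gene made up 30%, 26.2% and 38.8% of the control classes and 48.9%, 56.1% and 59.7% of the LPS classes. Over the 18 sums of 6 groups by 3 parts, Pearson's r of log2 CPM was 0.52 for Foxo1 with Foxo3, 0.34 for Foxo1 with Foxo4 and 0.27 for Foxo3 with Foxo4. The genes most like Foxo3 over these sums were Sirt2, a protein deacetylase (r = 0.86), Mrtfa, a transcriptional coactivator (0.83), and Clk1, a splicing kinase (0.82). Those most like Foxo1 were Zfp119b (0.85), Rnf216 (0.83) and Isoc2b (0.81), and among those most like Foxo4 were Rpl12 (0.73) and Gm20707 (0.73). Each was picked from at least 11079 genes, over sums that share libraries, groups and depth.

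How much FoxO RNA a cell held after LPS depended on the scale. Control cells had 10.7, 10.2 and 7.88 ERCC spike-in reads per 100 gene reads in the 3 classes, and LPS cells 3.9, 4.18 and 2.23. Per spike-in read, the median of all 11080 genes was higher in LPS by 1.30, 1.06 and 1.64 on the log2 scale. On that scale Foxo3 was higher by 1.03 in p27 high and by 0.67 in p27 negative cells, and its log2 difference in p27 low cells was -0.22. Relative to the median gene the Foxo3 differences were -0.28, -1.28 and -0.98, which nearly restate the values per gene read. The spike-in scale shifts genes alike, except those near the 1 CPM that is added. Foxo1 differed from the median gene by -0.08, -1.31 and -0.58. Foxo4, near that constant, differed by 0.27, -1.19 and -0.46. Per gene read its log2 folds were 0.90, -0.92 and 0.21, beside medians of -0.10, -0.17 and -0.13. The Foxo4 differences therefore depend on the added constant and do not restate the values per gene read. Whether equal amounts of spike-in were added to control and LPS cells was not given in the sources used here, and its part in these differences was not tested.

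**Figure D3:**
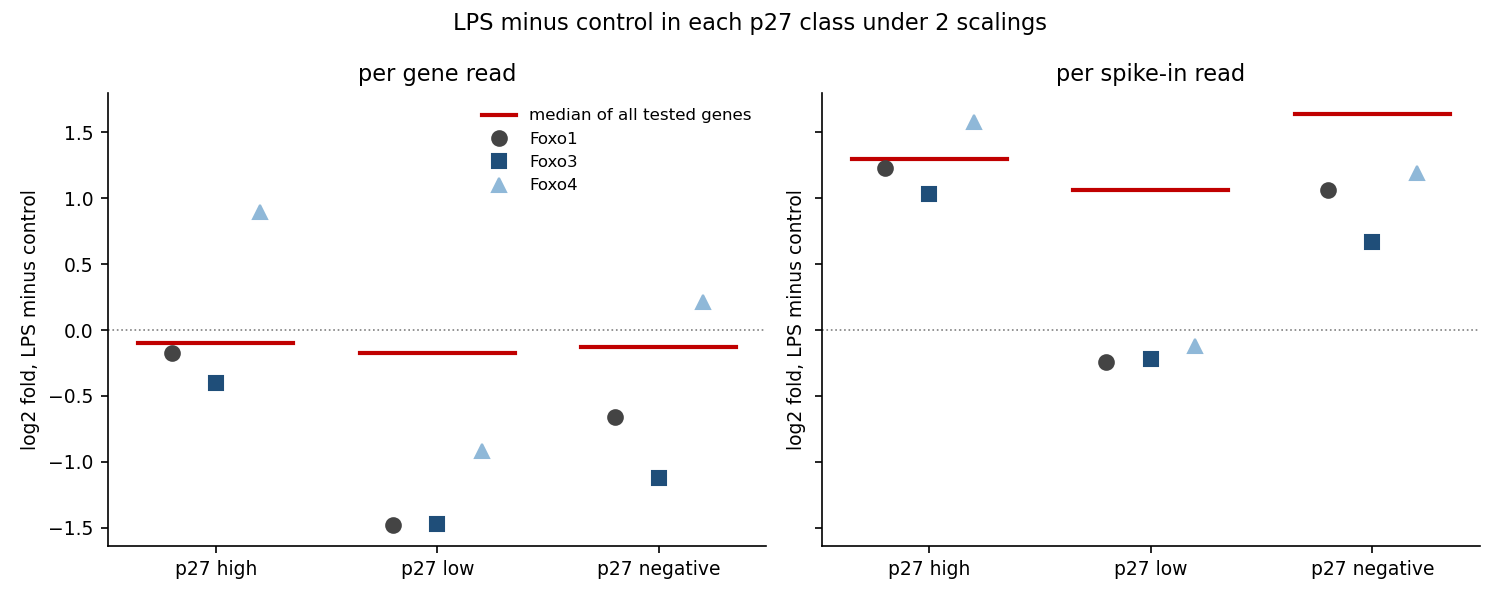
Log2 fold of LPS minus control (vertical axes) for Foxo1, Foxo3 and Foxo4 in each p27 class, per gene read (left) and per spike-in read (right); red lines mark the median of the 11080 tested genes. Foxo3 lies below the red line in all 3 classes, by nearly the same margin on both scales, and above 0 in p27 high and negative cells on the spike-in scale.

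The genes that feed into FoxO control were read in control p27 high against negative cells first. Of 22 tested PI3K-AKT input genes, 4 were higher past 1.5-fold in p27 high cells and 2 lower, where 23.5% of all tested genes were higher and 17.8% lower. The median log2 fold was 0.08 against 0.05 over all tested genes. Pik3cd, a catalytic PI3K subunit, was 151 against 57.7 CPM, and Pik3r1, its regulatory partner, was 2.02-fold higher. Pdpk1, the kinase that activates AKT, was lower, at 48.5 against 79.8 CPM. Of 14 brakes on the pathway 4 were higher and 1 lower, with a median of 0.23. Pik3ip1, a membrane inhibitor of PI3K, was 456 against 144 CPM, and its parts did not overlap. Phlpp1, a phosphatase that acts on AKT, was 7.55 against 20.6 CPM, though 70.1% of its p27 high reads came from 1 cell, without which the level was 2.29 CPM. Positive and negative regulators of AKT were thus both among the genes higher in p27 high cells.

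Among proteins that modify FoxO factors, 7 of 32 tested were higher and 9 lower in the p27 high class, beside 23.5% and 17.8% of all tested genes, and the median log2 fold was -0.11. Stk4, the MST1 kinase, was 198 against 114 CPM, and Setd7, a lysine methyltransferase, 42.6 against 22.6 CPM. Cdk1, the mitotic kinase, was 61.4 against 545 CPM, and Nlk, another kinase of FoxO proteins, 6.86 against 18.3 CPM (4.01 CPM in p27 high without its top cell). Of 6 tested 14-3-3 genes 0 were higher and 1 lower, Ywhah with 223 against 367 CPM. Of 9 other forkhead genes 1 was higher, Foxj2, with 23.2 against 13.5 CPM, and 2 were lower. Foxm1, a forkhead factor of dividing cells, was 0.921 against 114 CPM, and Foxn2 was 10.5 against 29.8 CPM.

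Per gene read, though not per spike-in read, more of the listed FoxO targets were higher than lower in control p27 high cells, where no FoxO gene itself passed the call. Foxo1 missed the call narrowly, at 28.9 against 19 CPM or 1.49-fold, and passed it with 0.1 CPM added. Of 57 tested targets, 23 were higher and 10 lower than in control p27 negative cells (23.5% and 17.8% of all tested genes), with a median log2 fold of 0.28 against 0.05 over all tested genes. Per spike-in read the split was 13 higher and 15 lower, against 1357 higher and 4073 lower over all genes. Per gene read, control p27 low against negative cells gave a like split, 24 higher and 12 lower, against 2299 and 1784 over all genes. In p27 high against negative cells 57.9% of targets were past 1.5-fold, where 41.3% of all tested genes were. The lists were chosen with earlier results of these data known, so these shares are a description. Target counts here and below take no account of whether FoxO proteins raise or lower a target. Among cell cycle targets 6 of 17 were higher and 6 lower. Cdkn1c, the p57 cell cycle inhibitor, was 49.1 against 15.6 CPM and Klf2 18.2 against 4.45 CPM, while Ccnb1 and Plk1, which drive mitosis, were 3.64 against 95.4 and 10.5 against 143 CPM. Without its top cell Plk1 was 4.82 CPM in p27 high cells. Among oxidative stress targets 5 of 15 were higher and 2 lower. Txnip, which binds thioredoxin, was 2236 against 987 CPM, and Gstm1, a glutathione transferase with close paralogs that makes its reads uncertain, 299 against 62.8 CPM.

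Death and autophagy targets were 9 higher and 2 lower of 17, beside 23.5% higher and 17.8% lower of all tested genes. Tnfsf10, the death ligand TRAIL, was 55 against 24.1 CPM, and Bnip3, a mitophagy receptor, 23 against 9.93 CPM, while Bcl2l1, which protects from apoptosis, was 21.1 against 62.3 CPM. Signalling and metabolism targets were 3 higher and 0 lower of 9. Trib3 and Trib1, pseudokinases, were 44.9 against 2.89 CPM and 19.1 against 1.08 CPM, and without the top cell the p27 negative levels were 1.71 and 0.675 CPM. The plot of these genes sets them beside the FoxO genes, but since they were picked by fold and by 1 sign in the 3 parts, the contrast with the FoxO genes follows from the choice.

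**Figure D4:**
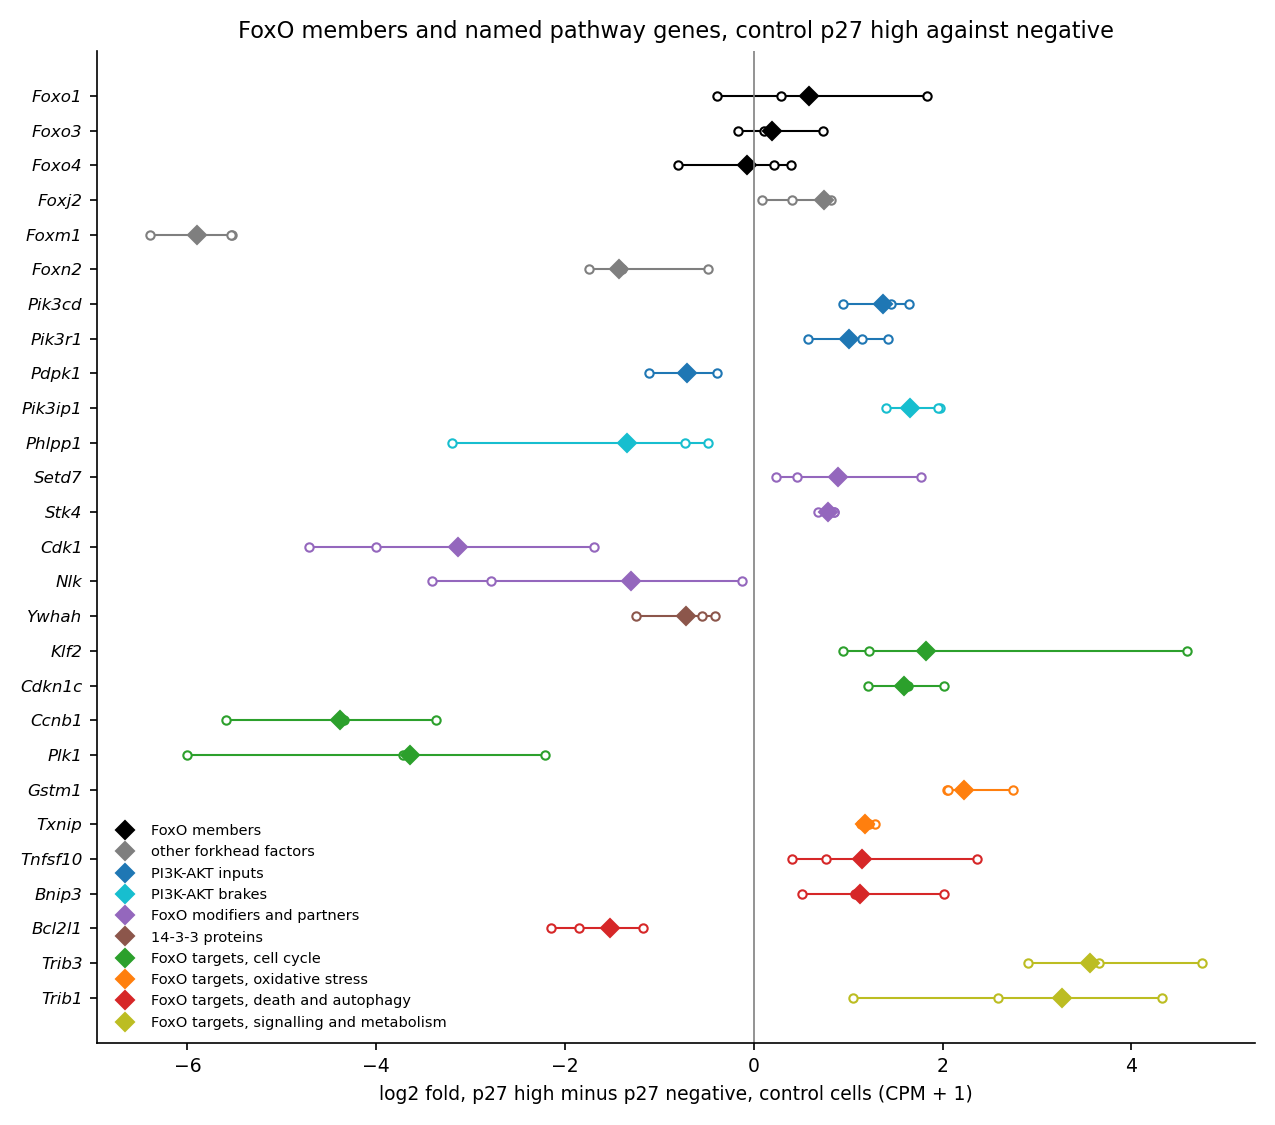
Log2 fold of control p27 high minus p27 negative cells (horizontal axis, CPM + 1) for the FoxO genes and the named genes of each list; diamonds are group sums, open circles the 3 parts by cell number and lines their range. The FoxO genes stay between -0.07 and 0.58 with parts on both sides of 0; the other genes were picked for a fold of at least 1.5 and parts of 1 sign, from Foxm1 at -5.90 to Trib3 at 3.56.

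After LPS, targets of the p27 high class were 10 higher and 19 lower of 57 (15.5% and 24.6% of all tested genes). Their median log2 fold was -0.31 against -0.10 over all tested genes. With TMM factors, which centre the genes, the split was 12 higher and 16 lower, and per spike-in read 41 higher and 1 lower. Over all tested genes these splits were 2160 higher and 2191 lower with TMM, and 9199 higher and 314 lower per spike-in read. Cell cycle targets were 5 higher and 6 lower of 17, oxidative stress targets 1 higher and 6 lower of 15, death and autophagy targets 3 higher and 4 lower of 17, and signalling and metabolism targets 1 higher and 3 lower of 9. Gadd45b, a stress response gene, was 187 against 6.63 CPM, and Cdkn1a, the p21 cell cycle inhibitor, 37.8 against 3.32 CPM. In the control cells 1 cell held 55.6% of the Gadd45b reads and 1 cell 80.6% of the Cdkn1a reads, and without it the levels were 2.97 and 0.652 CPM. Bcl2l11, the death protein BIM, was 48.5 against 10.3 CPM (5.7 CPM in control without its top cell), and Bcl2l1 74.7 against 21.1 CPM. Txnip was 1033 against 2236 CPM, Selenop, a selenium carrier, 234 against 432 CPM, and Rbl2, the p130 relative of the retinoblastoma protein, 41.5 against 94.2 CPM. Trp53inp1 was 31.9 against 76.5 CPM, Bnip3 11.4 against 23 CPM, Plk1 1.02 against 10.5 CPM and S1pr1, a receptor for a blood lipid, 15 against 35.2 CPM.

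The regulators in p27 high cells after LPS were 4 higher and 8 lower of 22 PI3K-AKT inputs, and 1 higher and 6 lower of 14 brakes, beside 15.5% higher and 24.6% lower of all tested genes. These directions are per gene read, and per spike-in read nearly all called genes were higher in this comparison, as given above. Pik3r5, a regulatory subunit of PI3K gamma, had no read in control and 865 in LPS (26 CPM). Against a floor of 3 counts over the control group this is at least 188-fold, a bound that covers the counting of independent reads only. The 865 reads came from 11 of 93 cells, with 92.7% in 6 cells, and the last part by cell number had 0.807 CPM. Control p27 low and negative cells had 92 and 75 Pik3r5 reads, from 4 cells each. Whether the absence in control p27 high cells reflects which cells were drawn was not tested. Mlst8, an mTOR complex subunit, was 35 against 19.4 CPM. Pik3cg, the catalytic PI3K gamma, was 41.1 against 99.6 CPM, and Pik3r1 was 1.84-fold lower. The brakes Pik3ip1 and Inpp4a were 203 against 456 CPM and 9.07 against 16.4 CPM. Of 32 modifiers 4 were higher and 6 lower. Ikbke, an inflammatory kinase, was 213 against 43.2 CPM and Mdm2, a ubiquitin ligase, 108 against 60.8 CPM, while Stk3, the MST2 kinase, was 17.6 against 51.3 CPM and Cop1, another ubiquitin ligase, 9.58 against 23.2 CPM. No 14-3-3 gene of 6 passed 1.5-fold, and of 9 other forkhead genes 1 was higher and 1 lower. Foxm1 was 5.44 against 0.921 CPM, with 65.7% of the LPS reads from 1 cell, without which it was 1.89 CPM.

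The targets whose promoter windows hold the core GTAAACA did not move one way after LPS. Of the 9, 7 were tested, and Tcf7 and Trim63 had means of 0.0111 and 0.0254 CPM. Txnip was 2236, 1797 and 987 CPM in the control classes and 1033, 647 and 432 CPM after LPS. Selenop was 432, 339 and 225 CPM and then 234, 167 and 119 CPM, and Sesn1, a stress-induced sestrin, 236, 260.1 and 204 CPM and then 109, 79.4 and 51.3 CPM. Per gene read these 3 were lower after LPS in each class, as Foxo3 was. Mxi1 was 27.8, 62.5 and 29.3 CPM, then 16.7, 17.4 and 28.7 CPM. It was thus lower in p27 high and low cells and nearly the same in p27 negative cells (log2 difference -0.03). Btg1, an antiproliferative gene, was higher after LPS in each class (33.4, 45.8 and 23.5 CPM, then 66.8, 70.7 and 46.6 CPM). Bcl2l11 was also higher, with 10.3, 7 and 17.9 CPM, then 48.5, 43.5 and 22.8 CPM. In p27 negative cells its parts by cell number overlapped, 3.67 to 27.5 CPM in control and 3.27 to 40.7 CPM in LPS. Bbc3, another death protein, was 8.8, 6.41 and 12.7 CPM and then 12, 17.7 and 9.94 CPM. Per spike-in read the log2 differences of LPS minus control were 0.34, -0.19 and 0.63 for Txnip, 0.57, 0.26 and 0.90 for Selenop, 0.33, -0.43 and -0.17 for Sesn1, and 0.69, -0.55 and 1.75 for Mxi1. Btg1 and Bcl2l11 were higher in each class on that scale too. These 9 genes were picked by their promoter letters, from target lists that were chosen with earlier results of these data known.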

How the data were processed

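Single HSCs were sequenced after Smart-seq2-type amplification and Nextera XT library preparation, per the labels' protocols. The authors deposited 2 tables of raw read counts per gene, per the file headers 1 column per cell. The submitters' processing notes name the aligner GSNAP, HTSeq 0.6.0 for counting and the build mm10. The annotation release and strand setting were not given in the sources used here. Of all reads, 63.8% stood in 5 summary entries that name no gene and were left out. GENCODE M21 named 45229 of 46078 genes by identifier. Members and lists were chosen with earlier results of these data known.

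Cells with at least 50000 gene reads were summed per group into CPM. Folds add 1 CPM, and a call is 1.5-fold. Of 154 list genes, 1 (Prmt1) was not matched. Shares at 50000 reads are the expected number of cells with a read, from the hypergeometric probability in each cell, rounded to whole cells for the interval. The shares over all genes were added after the members' shares had been seen. Named genes were, per list, up to 2 with the highest and 2 with the lowest fold in control p27 high against negative and in LPS against control p27 high cells, of at least 1.5-fold and 1 sign in the 3 parts. The 3 genes most like each member by Pearson's r were also named, except 1 that is not reported here. Doublets were not sought, no cells were clustered, and the procedure was tested on simulated data. Alternatives changed the scaling (TMM from edgeR 4.0.16, spike-in), the cells, the constant added and the call. Python 3.11.15, numpy 2.4.6, pandas 2.3.3, scipy 1.17.1 and R 4.3.3 were used.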

Additional observations from a re-analysis of the deposited data

Results flagged for a closer look

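Foxo1 differed between p27 high and p27 low cells in opposite directions in the treatments: its log2 fold was -0.67 in control cells and 0.64 in LPS cells. The difference between these effects was not tested, and in neither treatment did all 3 parts by cell number have the sign of the group. Foxo4 also differed in opposite directions, with a log2 fold of LPS minus control of 0.90 in p27 high cells and -0.92 in p27 low cells. Every part by cell number had the sign of its group there, at 12 to 83 reads per group, and the difference was not tested.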

How the results depend on the processing

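No paired analysis was possible because the results come from no test and the numbers of the cells only name them. Of the 126 recomputed counts of FoxO members past 1.5-fold, 87 stayed within 1.5 times the first count and 39 did not, and the cause was not tested. These counts take no account of which members passed or in which direction. In the order control p27 high against negative, high against low, low against negative, then the same for LPS, then LPS against control per class, the counts were 0, 2, 2, 3, 2, 0, 1, 3 and 2. For control p27 high against negative the count was 1 in cells with at least 200000 reads, without the top cell or with 0.1 CPM added, and 3 in cells numbered 65 to 96. For p27 high against low it was 1 with 5 CPM added or at 2-fold, and for p27 low against negative 1 in cells 33 to 64, in cells 65 to 96 and with 5 CPM added. In LPS p27 high against negative it was 0 per spike-in read and 1 in cells 33 to 64, in cells 65 to 96 and at 2-fold. In LPS p27 high against low it was 1 with equal weight per cell, TMM or 5 CPM added and 0 at 2-fold. In LPS p27 low against negative it was 1 with equal weight per cell or per spike-in read and 2 in each single part. For LPS against control in p27 high cells it was 2 with equal weight per cell or without the top cell, 3 per spike-in read and in each part, and 0 with 5 CPM added or at 2-fold. In p27 low cells it was 0 per spike-in read and 1 in cells 33 to 64 and in cells 65 to 96. In p27 negative cells it was 1 with TMM, in cells with 200000 reads, without the top cell, in cells 65 to 96, with 5 CPM added and at 2-fold. Per spike-in read it was 3 there, all higher after LPS, where the 2 of the first count were lower.

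Of 351 recomputed log2 folds of the 3 members, 38 changed sign, 12 of them folds past 1.5-fold in the first computation. Of the 38, 25 were in single parts by cell number and 8 per spike-in read. Of the 12, in cells 33 to 64 Foxo1 was 0.11 in control p27 high against low, -0.50 in control p27 low against negative, -0.88 in LPS p27 high against low and 0.19 in LPS against control p27 low. In LPS against control p27 negative cells Foxo1 was 1.06 per spike-in read, 0.03 in cells 1 to 32 and 0.15 in cells 65 to 96. Foxo3 was -0.27 in LPS p27 high against negative and -0.18 in LPS p27 high against low in cells 33 to 64, -0.98 in the latter in cells 65 to 96, 0.18 in LPS against control p27 low in cells 65 to 96, and 0.67 in LPS against control p27 negative per spike-in read. Foxo3 detection at 200000 reads was 74.5%, 81.5% and 71.4% in control and 54.9%, 50.8% and 48.2% in LPS, and its intervals were apart in p27 low cells only. Foxo4 had 12 to 83 reads per group.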

Other observations

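Besides Foxo3, 16 of the 11080 tested genes had a lower share of cells with a read after LPS in all 3 p27 classes with intervals apart. Among them were Lyl1, a transcription factor of blood stem cells, with 91.7%, 87.1% and 86.3% of cells in the control classes (p27 high, low, negative) and 72%, 58.9% and 56.5% of LPS cells. Cbfa2t3, a corepressor, was found in 81%, 89.2% and 87.4% of control and 54.8%, 48.9% and 48.9% of LPS cells, and Esam, a surface adhesion molecule of HSCs, in 67.9%, 76.3% and 67.4% and then 41.9%, 31.1% and 44.6%. Myl10 went from 36.9%, 31.2% and 32.6% to 6.45%, 3.33% and 4.35%. For all 17 genes every LPS part by cell number was below every control part of its class. These genes were chosen after their values were seen.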
